A study of Mus musculus with 2 samples.

Results

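The calpain system of skeletal muscle was examined for occupancy by NRF1, nuclear respiratory factor 1, a transcription factor that binds GC-rich promoters of many housekeeping and mitochondrial genes. The genes were a given list of 5, namely Capn1, Capn2, Capn3, Capns1 and Cast, out of 21000 protein-coding genes with a known RefSeq transcript, and all 5 had known RefSeq starts. The data were 1 list of NRF1 peaks from chromatin immunoprecipitation followed by sequencing of wild-type mouse skeletal muscle, an assay that recovers the DNA bound by a protein with an antibody against that protein. There were 2 libraries, each labelled NRF1 for its antibody and made from skeletal muscle nuclear extracts of mice, which in this study were on a C57Bl/6J background. The labels give neither age, sex nor treatment, and the study describes male mice and, for its NRF1 analysis, wild-type mice of 9 weeks. Whole muscle also holds nuclei other than those of myofibers. All peak names carry the title of the library of replicate 1, and the reporting summary of the study names that of replicate 2 as input DNA, against its label. The list was therefore taken as 1 measurement, no value below has a replicate error, and no test was run. A list of peaks holds no expression, so the labelled tissue was not checked against markers.

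Calpains are calcium-dependent cysteine proteases that cleave their substrates at few positions and so process proteins rather than degrade them completely. In muscle they are known for releasing proteins from the sarcomere, which other proteolytic systems then degrade. Calpain 1 and calpain 2, the large catalytic subunits encoded by Capn1 and Capn2, each pair with the small regulatory subunit encoded by Capns1. Calpain 3, encoded by Capn3, is the muscle-enriched member and binds titin, and its loss in humans causes a limb-girdle muscular dystrophy. Calpastatin, encoded by Cast, is the endogenous inhibitor of the calpain 1 and calpain 2 dimers.

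NRF1 occupied the promoter of the shared small subunit Capns1 in this list, and no promoter peak was called at the catalytic subunits Capn1, Capn2 and Capn3 or at the inhibitor Cast. A promoter reached from 1000 bp upstream of any known start to 100 bp downstream, and a promoter peak had its summit, the position of highest signal, in that window. Thus 1 of the 5 genes had a promoter peak, where 2808 of the 21000 protein-coding genes, or 13.4%, had one. With 5 genes the count is a description and is not set apart from that background. The gene list was chosen with the Capns1 peak known, so that peak is not an independent observation.

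The promoter of Capns1 is shown first because it carried the peak. Below are the 150 bases directly before its start, 5′ to 3′ in the direction of the gene, from the minus strand at chr7:30195154-30195303 of the RefSeq GRCm38 assembly, which is mm10. Capitals mark the copy of the NRF1 motif, the palindrome GCGCATGCGC, with at most 1 mismatch on either strand.

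Capns1: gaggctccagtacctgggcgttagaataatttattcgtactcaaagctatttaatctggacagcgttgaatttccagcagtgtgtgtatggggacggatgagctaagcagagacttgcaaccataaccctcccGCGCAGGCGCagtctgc

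The copy GCGCAGGCGC ended 8 bp before the start and began 17 bp before it. It differed from the palindrome by T6G, with positions counted from 1 at the 5′ end of the palindrome, the base of the palindrome given first and the copy read along the gene. It was the only copy with at most 1 mismatch in the promoter of Capns1, and also the only one in the peak.

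The Capns1 gene lies on the minus strand of chromosome 7 from 30186934 to 30195153, with 11 exons in its 1 known transcript. The peak ran from 30195070 to 30195346, from 193 bp before the start to 83 bp after it, and was 277 bp wide. Its summit at 30195204 lay 51 bp before the start, upstream of the first exon. In GENCODE M21 basic, an annotation added after seeing the data, the nearest start is at 30195048, within that exon, and the summit lay 156 bp before it, so positions relative to the start hold for the RefSeq start. Its fold enrichment, which is summit signal over control background as deposited, was 19.8, with a −log10 q of 45.7. By fold enrichment it ranked 351 of 2607 promoter peaks and 386 of all 3226 peaks. Promoter peaks had a median fold enrichment of 11.1, with quartiles of 7.90 and 16.4, so the Capns1 peak stood above the upper quartile and exceeded 86.5% of them. Its −log10 q exceeded that of 76.5% of promoter peaks, which had a median of 25.3. In width it was close to the median promoter peak of 296 bp. No other gene had this summit in its promoter, and no known start on the opposite strand lay within 1000 bp of that of Capns1.

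**Figure D1:**
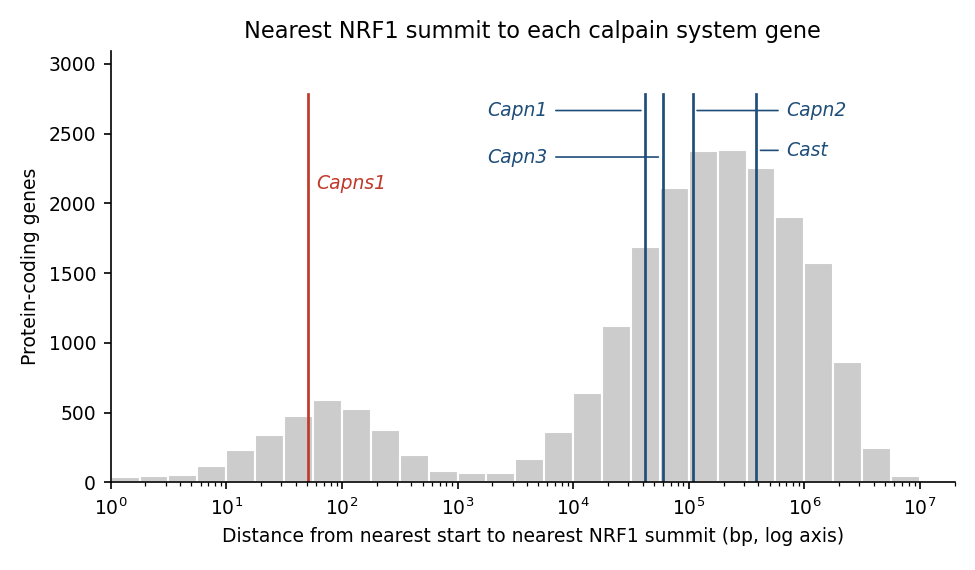
Distance in bp, on a log axis, from the nearest known start of a gene to the nearest NRF1 summit, for all 21000 protein-coding genes (grey bars) and for the 5 calpain system genes (lines). Capns1, at 51 bp, sits in the small mode of genes with a peak at their start, and the other 4 genes, at 41967 to 383979 bp, sit in the large mode of genes without one.

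The catalytic subunits of the classical calpains had no summit nearby. Capn1, on the minus strand of chromosome 19 from 5988545 to 6015825, has 2 known starts, and the nearest summit lay 41967 bp before the upstream one. That summit was in the promoters of Fau and Mrpl49, the latter a gene of the mitochondrial ribosome, in a peak with a fold enrichment of 25.0. Capn2, on the minus strand of chromosome 1 from 182467253 to 182517610, had its nearest summit 108579 bp after its only known start, beyond the end of the gene. This summit belonged to the Trp53bp2 promoter, with a fold enrichment of 6.85. Hence neither nearest summit lay in a promoter of the calpain gene itself or inside its gene body.

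Capn3, on the plus strand of chromosome 2 from 120463593 to 120504919, has 2 known starts, at 120463593 and 120476909, neither with a peak. The nearest summit was 59376 bp before the upstream start, in the promoter of Tmem87a, with a fold enrichment of 5.42. Cast, on the minus strand of chromosome 13 from 74693294 to 74808760, has 8 known transcripts from 4 starts. Its nearest summit was 383979 bp after the last of these starts, in the promoters shared by Sdha, a subunit of respiratory complex II, and Ccdc127, with a fold enrichment of 15.0. This was the most distant nearest summit of the 5 genes.

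These distances were set beside those of all genes without a promoter peak. The median distance over the 18192 protein-coding genes without one was 186975 bp, with quartiles of 58885 and 585252 bp. Capn1 lay below the lower quartile, and Capn3, Capn2 and Cast lay between the quartiles. Among all protein-coding genes, 30.0% had a nearer summit than Capn1, 35.2% than Capn3, 45.8% than Capn2 and 70.8% than Cast. For Capns1 that share was 5.73%. None of the 5 genes had a summit between its first and last base. The share of all protein-coding genes with a summit there was not computed, so this count is a description only.

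The motif was then compared between the 5 genes, with a copy counted where at most 1 of the 10 bases differed. Capns1 was the only one of the 5 with such a copy in a promoter. Of all protein-coding genes, 12.1% had a copy in a promoter. A promoter peak was called at 75.4% of genes with a copy and at 4.81% of genes without one. The closest match of Capn1 and of Cast had 2 mismatches, and that of Capn2 and of Capn3 had 3. Among all protein-coding genes a promoter peak was present at 73.0% of those whose closest match had 1 mismatch, at 13.9% of those with 2 and at 1.44% of those with 3. Genes with more starts have more sequence in which a match can occur, which applies to Cast with its 4 starts.

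**Figure D2:**
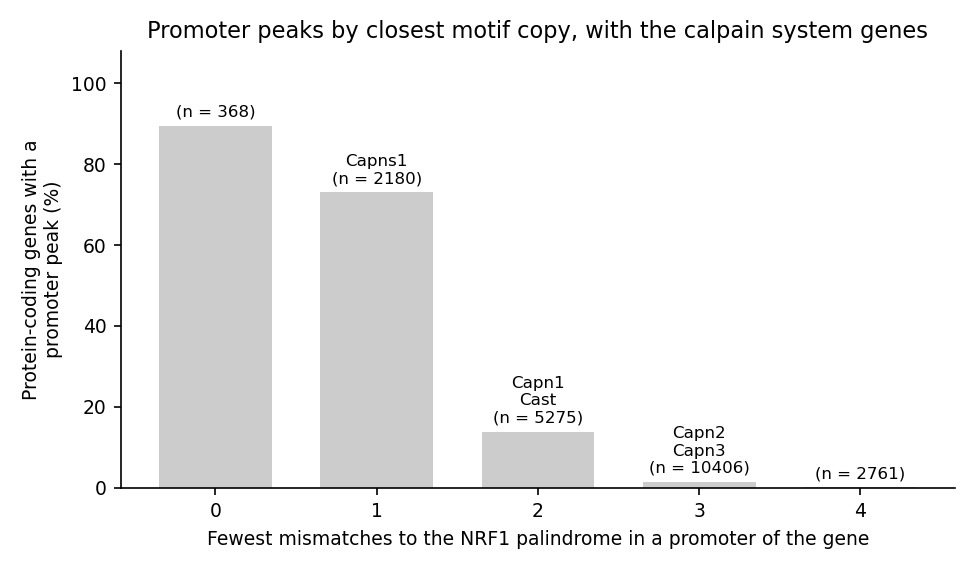
Share of protein-coding genes with an NRF1 promoter peak, in percent, by the fewest mismatches to the palindrome in any promoter of the gene, with the number of genes in each class. The calpain system genes are written above their class, and Capns1 is in the class with 1 mismatch and 73.0% of genes with a peak, whereas the other 4 are in classes with 13.9% or 1.44% (10 genes with 5 mismatches, none with a peak, are not drawn).

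The matches of Capn1 and Cast, the genes without a peak whose closest match had 2 mismatches, are printed for comparison with that of Capns1, each with 10 bases to either side in lower case and the match in capitals, in the direction of the gene. That of Capn1 is at chr19:6016386-6016395 and those of Cast are at chr13:74808194-74808203 and chr13:74734526-74734535.

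Capns1: taaccctcccGCGCAGGCGCagtctgcaat
Capn1: gtcttcatcaGCTCATGCCCagctgagcat
Cast, distal match: cccaggcagtGAGCATGGGCatggaggcag
Cast, proximal match: ttgcttacttGCTCATGCACacttagagca

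The match of Capn1 began 570 bp before the upstream start and carried G3T and G9C. The distal match of Cast began 243 bp before the start at 74807960 and carried C2A and C8G. Its proximal match began 274 bp before the start at 74734261 and carried G3T and G9A. Each of these 3 matches lay more than 200 bp from its start, whereas the copy of Capns1 lay within 17 bp. Most of a promoter reaching 1000 bp upstream lies more than 200 bp from the start, so this is a description only. Whether the position of a match matters was not tested.

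The same 10 bases were looked up in every protein-coding promoter, on both strands. The copy of Capns1, GCGCAGGCGC or its reverse complement GCGCCTGCGC, was present in a promoter of 857 genes, and 720 of them, or 84.0%, had a promoter peak. The match of Capn1, GCTCATGCCC, was present in promoters of 42 genes, of which 5 had a promoter peak, or 11.9%. The distal match of Cast, GAGCATGGGC, was present at 63 genes, of which 17.5% had a peak, and the proximal one, GCTCATGCAC, at 31 genes, of which 16.1% had a peak. The shares at the matches of Capn1 and Cast were thus near the 13.4% of all genes, and a gene counted here may hold a better match elsewhere in its promoters.

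The motif of Capns1 was not directly under the summit. Its centre lay 38.5 bp from the summit, on the side of the start. Among the 1719 promoter peaks with a motif within 100 bp of the summit, the median distance was 12.5 bp, and 13.1% had their nearest copy farther away than at Capns1. Within 100 bp of the Capns1 summit the GC content was 54.7% and the CpG ratio, observed over expected CpG, was 0.815.

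Sequence composition at the starts differed among the 5 genes. CpG-rich promoters are typical of broadly expressed genes, and the CpG ratio was taken within 200 bp of each start. At Capns1 it was 0.806, with a GC content of 58.9%. At Capn2 it was higher, at 0.913, with a GC content of 71.3%. The highest ratio among the starts of Capn1 was 0.626, of Cast 0.596 and of Capn3 0.365. Capn2 therefore had the most CpG-rich start of the 5 and no peak, and by the most CpG-rich start of each gene Capn3, the muscle-enriched calpain, was lowest. The lowest ratio of any single start was 0.225, at the Cast start at 74734261.

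Both features were set beside the background together, with genes divided into 5 equal classes by the CpG ratio of their most CpG-rich start. Capns1 was in class 4 and had a motif copy, and of the 782 genes of that kind 80.6% had a promoter peak. Capn2 was in the same CpG class with at least 3 mismatches, and of 1993 such genes 3.01% had a peak. Capn1 and Cast were both in class 3 with 2 mismatches, where 11.3% of 1191 genes had a peak. Capn3 was in class 2 with at least 3 mismatches, where 0.0882% of 3403 genes had one. Each of the 5 genes was on the side of the majority of its own class. Among genes with 2 mismatches only 19.0% had a peak even in class 5, so lacking a peak was the usual case without a copy. The comparison is a description, and whether motif or CpG ratio accounts for a peak was not tested.

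The other genes of the calpain family were described with the same rule, since they share the protease core or the small subunit fold with the 5 genes. Of 11, promoter peaks were called at 2, Capn5 and Capn7, beside the 13.4% of all genes. Capn5 encodes a calpain without the calcium-binding domain that pairs with the small subunit, and Capn7 an atypical calpain linked to endosomal sorting. The remaining 9 were Capn6, Capn8, Capn9, Capn10, Capn11, Capn12, Capn13, Capn15 and Capns2, the gene of a second small subunit. Their nearest summits lay 15521 to 1436923 bp from a start. The nearest of these was at Capn12, with 15521 bp, then Capn11 with 27016 bp and Capn9 with 55368 bp. The gene of the other small subunit, Capns2, was 909080 bp from a summit, and its closest match to the palindrome had 2 mismatches.

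The bases before the starts of Capn5, at chr7:98178275-98178424 on the minus strand, and of Capn7, at chr14:31336488-31336637 on the plus strand, are given in the same way as those of Capns1, because these are the only other calpain promoters with a peak.

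Capn5: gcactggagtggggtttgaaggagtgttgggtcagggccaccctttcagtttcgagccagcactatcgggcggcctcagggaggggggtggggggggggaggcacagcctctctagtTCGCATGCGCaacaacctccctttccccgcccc
Capn7: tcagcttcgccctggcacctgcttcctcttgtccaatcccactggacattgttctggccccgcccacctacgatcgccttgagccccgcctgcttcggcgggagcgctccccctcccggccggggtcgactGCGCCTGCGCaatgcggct

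In each of the 3 calpain promoters with a peak, a motif copy with 1 mismatch began within 33 bp before the RefSeq start. For Capns1 this does not hold for the nearest GENCODE start, at 30195048. Of all promoter peaks, 65.9% had a copy with at most 1 mismatch within 100 bp of the summit. How often such a copy lies this close to a start was not computed over all promoter peaks, so the count is a description only. The copy of Capn7 carried A5C, began 19 bp before the start and is the reverse complement of the copy of Capns1. A second copy of Capn7, GCGCATGCTC with G9T, lay from 31336399 to 31336408, beginning 239 bp before the start. It was inside the peak but outside the window of 100 bp around the summit. The copy of Capn5 carried G1T and began 33 bp before the start at 98178274. This copy was rarer, in promoters of 16 genes, of which 11 had a promoter peak.

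Fold enrichment differed between the 3 peaks. It was 19.8 at Capns1, 11.9 at Capn7 and 5.39 at Capn5, with −log10 q of 45.7, 33.6 and 6.13. The Capns1 peak was above 86.5% of promoter peaks, the Capn7 peak above 54.4% and the Capn5 peak above 7.21%, so the latter was among the weakest of the list. The summit lay 32 bp before the start at Capn7, in a peak from 31336395 to 31336783. It lay 19 bp before the upstream of 2 starts at Capn5, in a peak from 98178185 to 98178487. Without replicate values, the spread to be expected for any of these fold enrichments is unknown.

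**Figure D3:**
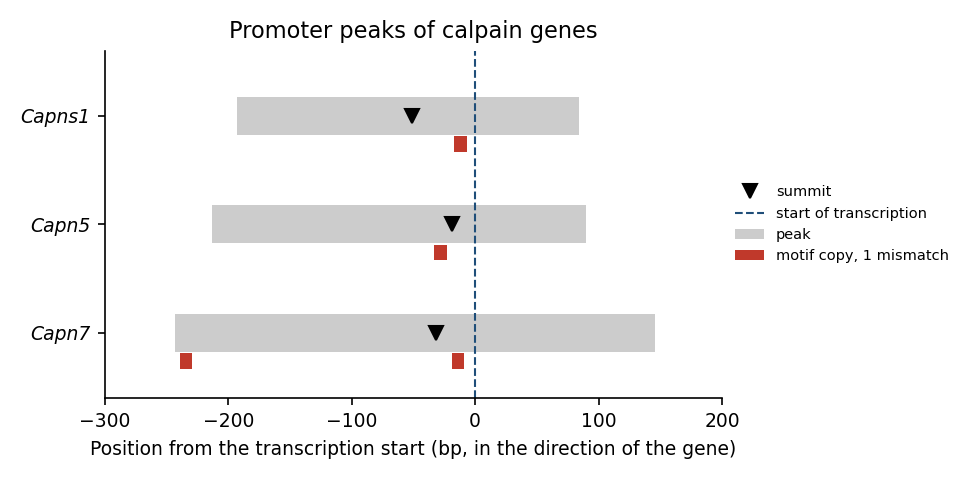
Peaks (grey bars), summits (triangles) and motif copies with 1 mismatch (red boxes, 10 bp each) at Capns1, Capn5 and Capn7, by position in bp from the transcription start in the direction of the gene. All 3 summits lie 19 to 51 bp before the start, and the motif nearest to the start lies between summit and start at Capns1 and Capn7 and upstream of the summit at Capn5.

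**Figure D4:**
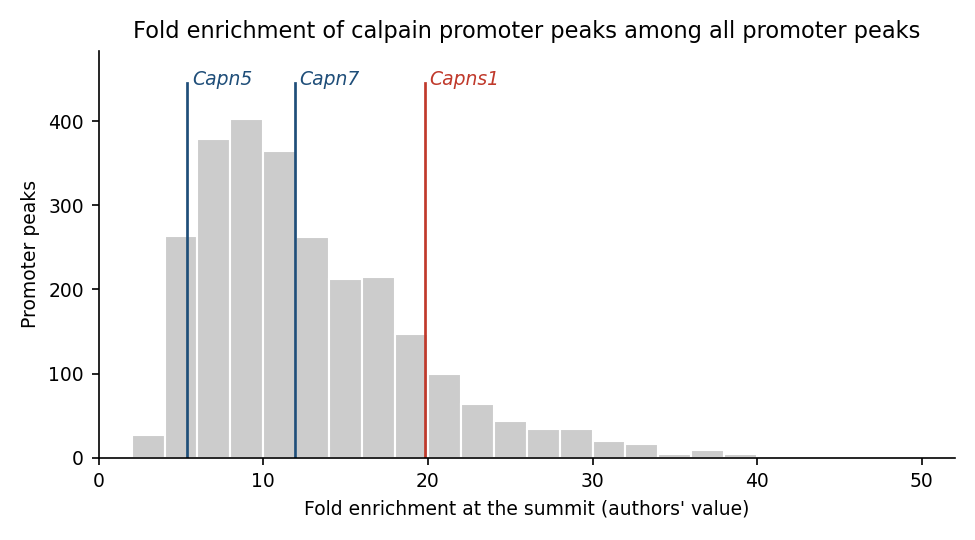
Number of promoter peaks by fold enrichment at the summit, as given by the authors, in steps of 2, for all 2607 promoter peaks (grey bars), with the 3 calpain promoter peaks as lines. Capns1, at 19.8, lies right of the bulk of peaks, Capn7, at 11.9, near the middle and Capn5, at 5.39, at the low end.

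Proteins that calpains cleave or bind in muscle were listed as well. The list held 12 genes, among them Ttn (titin) and Neb (nebulin) of the sarcomere, Des (desmin), Flnc (filamin C), the spectrins Sptan1 and Sptbn1, and Dysf (dysferlin) of membrane repair. None of the 12 had a promoter peak, against 13.4% of all protein-coding genes, and none had a promoter copy of the motif with at most 1 mismatch, against 12.1%. Their nearest summits lay 22285 to 3071254 bp from a start, the nearest being at Ahnak (22285 bp), Flnc (34461 bp) and Cmya5 (47753 bp) and the farthest at Ttn. The summit nearest to Flnc was in the promoter of Atp6v1f, and that nearest to Ahnak in the promoter of Eef1g. Over all 28 genes of the 3 lists, the 3 with a motif copy in a promoter had a promoter peak and the 25 without a copy had none, beside 75.4% and 4.81% of all protein-coding genes with and without a copy, so these counts do not set the lists apart. Read depth is not given by the list, and sites that missed the threshold may therefore have been bound.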

How the data were processed

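The data were 1 deposited list of NRF1 peaks in mm10. According to the methods of the study, the authors mapped single-end reads with Bowtie, kept uniquely mapped reads and called peaks with MACS2 against input DNA. Reads in blacklisted regions were removed. For this step the methods name a blacklist of the human genome, although the reads were mapped to mm10. The authors gave each peak a fold enrichment, which is a ratio to the control background, a −log10 q-value and, among the other values deposited, its start, end and summit distance. Of 3226 peaks, 7 had a q-value above 0.01, the limit named in the methods. The methods also name the broad setting of MACS2, although this is a narrow-peak list with summits, and its length is not that of the peak set counted in the study. The peak names carry a word for duplicate removal, and unique mapping can lower the signal in repeats, neither of which was tested here. Pooling of libraries is not described. Read depth is unknown, so no interval was computed.

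Starts were those of 45756 known RefSeq transcripts of GRCm38 (31603 different starts), coding or not. Predicted transcripts were left out. Protein-coding genes had a known coding transcript on 1 of the 22 chromosomes with peaks. Summits were assigned to promoters, and motif mismatches were counted on both strands, with Python 3.11.15, numpy 2.4.6, pandas 2.3.3 and pysam 0.24.0. These steps were checked on planted motifs and peaks. The motif was the palindrome named in the study, and promoters reached from 1000 bp upstream to 100 bp downstream of a start. Every calpain system gene was named. Of the other lists, values were to be given for genes with a promoter peak and the 3 with the nearest summits, and further genes were named only as members of their list. Values of Capns2 and Ttn, and the genes beside motif copies outside promoters, were added after they were seen. Peaks most alike to that of Capns1 were the 2 next higher and 2 next lower in fold enrichment. The genes and lists were chosen with earlier results of these data known. The share of motif copies in peaks over all chromosomes was added after seeing the data. Alternatives were other promoter windows, thresholds, start sets, mismatch limits and motif windows.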

Additional observations from a re-analysis of the deposited data

How the results depend on the processing

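The count of calpain system genes with a promoter peak was 1, always Capns1, under all 6 alternatives of window, threshold, overlap and start set and with GENCODE M21 basic starts, a set added after seeing the data. The other calpain family genes with a peak were Capn5 and Capn7 under each of these, and no substrate or partner had one. Over all protein-coding genes the count ranged from 2680 at a fold enrichment of at least 5 to 3089 with promoters of 2000 bp upstream and 500 bp downstream. Of 59 alternative values for 11 results, 46 were unchanged or, for the count over all protein-coding genes, within 1.5 times the value reported. The others were motif counts and distances. Distances to a peak edge moved by construction, and the other moved distances changed with the set of annotated starts. To the nearest peak edge the distances were 41785 bp for Capn1, 108451 bp for Capn2, 59289 bp for Capn3, 383760 bp for Cast and 0 bp for Capns1, whose start is inside the peak. With predicted starts that of Cast was 383974 bp. With GENCODE starts they were 108493 bp for Capn2, 59362 bp for Capn3, 383949 bp for Cast and 156 bp for Capns1, whose nearest annotated start then lies inside the RefSeq first exon. With no mismatch allowed, 0 of the 5 genes had the motif in a promoter and the Capns1 peak held 0 copies. With at most 2 mismatches 3 genes had it, Capn1, Capns1 and Cast. Of all 21000 protein-coding genes, the closest match had no mismatch at 368, 1 mismatch at 2180 and 2 mismatches at 5275. The counts of the 5 genes are thus not set apart from that background. No paired analysis was possible because there is a single list of peaks and no second group, so no replicate could be left out either.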

Other observations

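Copies of the motif outside promoters were searched over each of the 5 calpain system genes with 10000 bp to either side. There were 6 copies with at most 1 mismatch in all, and 1 of them, that at the Capns1 start, lay in a peak. Over all chromosomes with known starts, 73.2% of copies inside promoters and 2.16% of 24734 copies outside them lay in a peak, and of exact palindromes outside promoters 5.95% did, so a copy without a peak was the usual case outside promoters. The only exact palindrome, at chr19:5979978-5979987, lay 8558 bp beyond the end of Capn1, within the gene Slc22a20, and carried no peak. The GC content within 100 bp of it was 48.1% and the CpG ratio 0.468, compared with 59.0% and 0.820 at the copy of Capns1. In Capn2, introns held GCGCACGCGC and GCGCATGCCC, centred 29164 and 27398 bp from the start, without a peak. Within 100 bp of these the GC content was 48.6% and 56.2% and the CpG ratio 0.569 and 0.182. An intron of Cast held GCTCATGCGC, centred 5114 bp from the nearest start, also without a peak, where the GC content was 31.9% and the CpG ratio 0.187. The second copy near Capns1 lay 4786 bp beyond the end of the gene, in the non-coding gene Gm5113, and had no peak. It was 2032 bp from the start of Cox7a1, a gene of the respiratory chain. Within 100 bp of it the GC content was 49.0% and the CpG ratio 0.574. No copy was found over the 61327 bp examined at Capn3. Whether methylation of CpG or the accessibility of the DNA differs between these copies was not tested.

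The promoter peaks closest to that of Capns1 in fold enrichment were those of Akap1 and Atg4d, the next higher, and of Smim11 and Cfdp1, the next lower. Akap1 encodes an anchoring protein of the outer mitochondrial membrane and Atg4d a protease of autophagy. Their fold enrichments were 19.8, 19.8, 19.7 and 19.7. All 4 peaks held a motif copy with 1 mismatch within 100 bp of the summit, as did that of Capns1. Of all 2607 promoter peaks, 65.9% held a copy with at most 1 mismatch there, so this count does not set the 4 peaks apart. The −log10 q was 79.7 at both Akap1 and Atg4d and 44.1 at both Smim11 and Cfdp1, against 45.7 at Capns1. At like fold enrichment the q-values thus differed widely.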
